A study of Mus musculus with 6 samples.

Results

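The genes described here are 33 mouse genes of tight junctions and cell polarity, measured by RNA sequencing in 6 libraries. They were chosen by symbol, as 17 claudins, 3 MARVEL-domain proteins, 4 immunoglobulin-like junction proteins, 6 cytoplasmic scaffolds and 3 polarity proteins, and all 33 were found among the 20007 gene identifiers of the files. The study compared 3 groups of 2 libraries, all from mice of the KM strain, to place chemically induced Sertoli-like cells by their expression profile. MEFs were embryonic fibroblasts, labelled 13.5 days post coitum. CiSCs were passaged MEFs of the same labelled age that had been treated with small-molecule compounds not named in the labels. MSCs were cultured Sertoli cells, which nurse the germ cells of the testis, taken at postnatal day 60. No group was described as passaged MEFs without compounds, so passage and compounds cannot be told apart, and MSCs differed from MEFs in age and tissue as well as cell type.

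Tight junctions are belts of contact near the apex of epithelial cells, or near the base of Sertoli cells, where they form the blood-testis barrier. Claudins span the membrane and set which ions and solutes pass, some by sealing the gap and others by forming pores, while occludin and tricellulin belong to the MARVEL family and junctional adhesion molecules to the immunoglobulin superfamily. ZO proteins, cingulins and MAGI proteins tie these to actin, and the PAR3, PAR6 and atypical protein kinase C complex positions the belt along the cell's axis. Claudin-11 is the claudin best known from Sertoli cells, whose barrier fails to form in mice lacking it.

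Library totals were between 19294671 and 20418587 expected counts (estimated read counts per gene, which need not be whole), so that 1 read was worth 0.0468 to 0.0543 CPM. CPM are counts per 1000000 of a library size scaled by TMM (trimmed mean of M values). A gene with 0 reads in a group could still have had up to 3, which is 0.0769 CPM for MEFs, 0.0709 for CiSCs and 0.0806 for MSCs, and these limits cover counting error only. Of the 33 genes, 21 had enough counts to be tested and 12 did not. The MEF libraries were the least alike. Over the 21 tested genes the median difference between replicates was 0.81 on the log2 scale in MEFs, 0.16 in CiSCs and 0.20 in MSCs, against 0.37, 0.14 and 0.13 over all 15272 tested genes. MEFs replicate 1 was the higher MEF library for 18 of these 21 genes and for 7462 of all 15272. Leukocyte markers differed between the same libraries, with 12 genes summing to 11924 CPM in MEFs replicate 1 and 19574 CPM in MEFs replicate 2. The labels do not say whether replicates were separate cultures or animals, so p-values measure only the spread between these libraries, which may be technical. Adjusted p-values (edgeR, quasi-likelihood) were adjusted by Benjamini-Hochberg over all 15272 genes, and fold changes are log2 values ± standard error from the same fit.

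CiSCs were compared with MEFs to see how junction genes differed between induced cells and the cells they came from. Higher in CiSCs were the pore-forming claudin gene Cldn15, the adhesion molecule genes Jam2 and F11r, and the scaffold genes Cgnl1, Tjp1 and Magi3, with the polarity genes Pard3 and Prkci among the smaller increases. Lower were Cldn1, Tjp3 and Pard6b. In all, 11 of the 33 genes were higher, 3 were lower, 7 did not pass and 12 were not tested. Over all tested genes 19.6% were higher and 21.3% lower, 40.9% in all. The libraries of both groups did not overlap for 13 genes higher in CiSCs (35.9% of all tested genes) and for 3 lower (35.3%). The median log2 fold change was 1.24 over the 21 tested genes and 0.00 over all tested genes. A gene near 0 in some groups could be tested only through a group in which it was high. These counts and the median thus describe the list and are not support for a direction. Without either CiSC library 7 genes were higher in place of 11, and without MEFs replicate 2, 5 were lower in place of 3.

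MSCs were compared with MEFs to see which junction genes marked the cultured Sertoli cells. Cldn11 and the cingulin gene Cgn, both near the detection limit in MEFs, stood at 170.0 CPM or more in every MSC library, and the claudin genes Cldn23, Cldn4, Cldn15 and Cldn2 rose as well. All 4 immunoglobulin-like genes rose, as did Cgnl1, Magi3 and Pard6b, while Cldn1 and Tjp3 fell. Of the 33 genes, 13 were higher and 2 lower, 6 did not pass and 12 were not tested. Among all tested genes 22.5% were higher and 20.0% lower, 42.5% in all. Groups did not overlap for 17 genes higher in MSCs (36.9% of all tested genes) and 2 lower (35.6%). The median log2 fold change was 2.43, against 0.01 over all tested genes. Cldn2, Cldn4, Cldn11, Cldn23 and Cgn were near 0 in MEFs and could be tested only through a group in which they were high. These counts and the median again describe the list and are not support for a direction. Without MEFs replicate 2, or without either MSC library, 1 gene was lower in place of 2.

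CiSCs were compared with MSCs, the cells they were meant to resemble. Most tested junction genes were lower in CiSCs, by wide margins for Cgn, Cldn11, Cldn23 and Pard6b and by smaller ones for F11r and Jam2, while Cldn15, Tjp1 and Pard3 were higher. Of the 33 genes, 3 were higher and 12 lower in CiSCs, 6 did not pass and 12 were not tested. Over all tested genes 17.7% were higher and 25.1% lower, 42.8% in all. All 21 tested genes had groups that did not overlap, 6 of them higher in CiSCs (38.4% of all tested genes) and 15 lower (42.5%). The median log2 fold change was -0.91 over the tested genes and -0.03 over all tested genes. Here too, genes near 0 in CiSCs could be tested only through a group in which they were high. The counts and the median are therefore not support for a direction. Without MEFs replicate 1, 5 genes were higher in place of 3. Each pair of these comparisons shares a group, so they are not independent of each other.

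**Figure D1:**
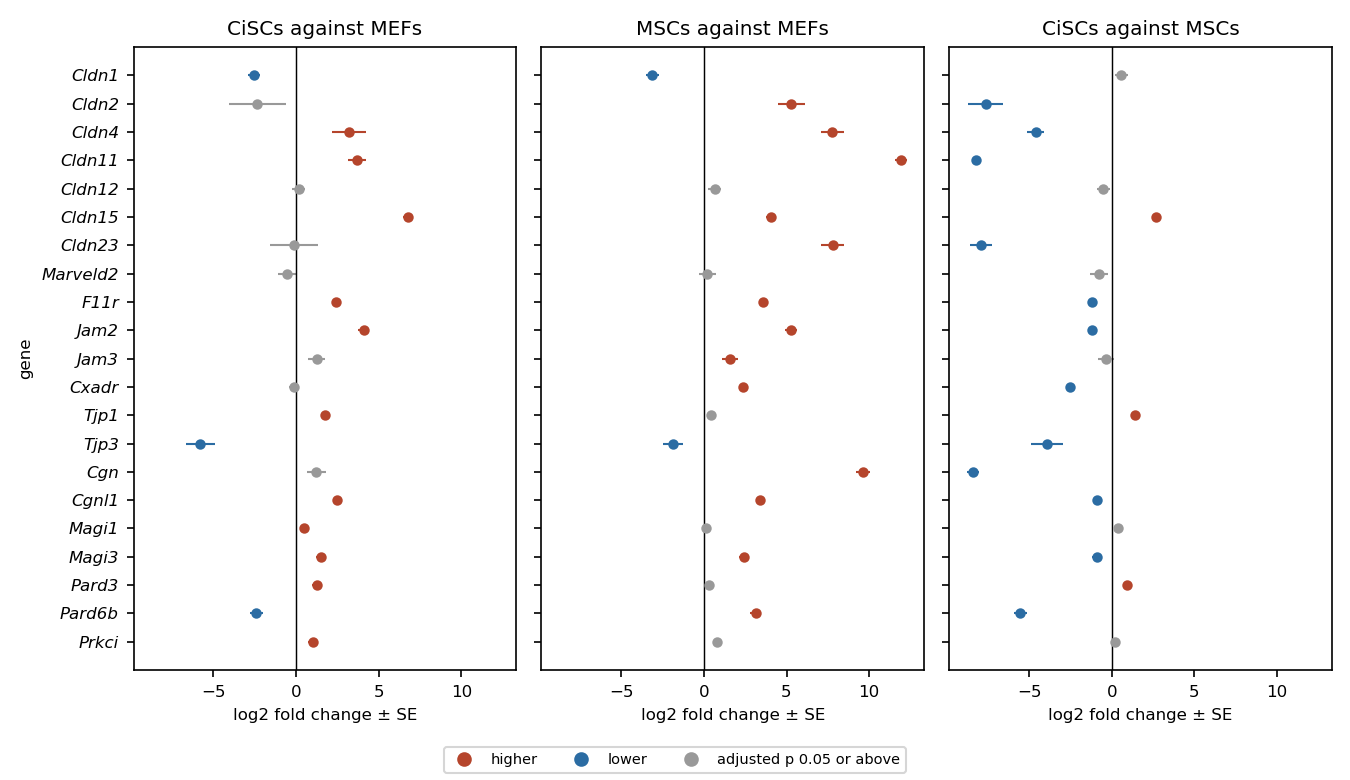
Log2 fold change ± standard error (x axis) of the 21 tested genes (y axis, by role) in each comparison, from edgeR's quasi-likelihood fit. Red points were higher and blue points lower at an adjusted p under 0.05, and grey points did not pass. Cldn11 and Cgn lie farthest right for MSCs against MEFs (11.90 and 9.63), and Cldn15 is farthest right for CiSCs against MEFs (6.78). The fitted values of Cldn2 for CiSCs, which had 0 reads, depend on the fit's prior count.

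Each group had its own leading claudin. Of the 17 claudin genes 7 were tested, of which 3 were higher and 1 lower in CiSCs than in MEFs, 5 and 1 in MSCs than in MEFs, and 1 and 4 in CiSCs than in MSCs. The shares over all tested genes were 19.6% and 21.3%, 22.5% and 20.0%, and 17.7% and 25.1%. To compare genes with each other, CPM were divided by the length of their exons in GENCODE M21 (build GRCm38, not the mm9 build named for the alignment, so these shares are approximate). Cldn12, a widely expressed claudin, made up 75.2% and 67.1% of the summed claudin level per kb in the MEF libraries, and Cldn1 20.3% and 25.6%. In CiSCs Cldn15 made up 63.7% and 60.0% and Cldn12 31.6% and 35.0%. Cldn11 held 85.0% and 87.7% in MSCs, and no more than 2.55% in any CiSC library. The leading claudin was the same in both libraries of each group.

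**Figure D2:**
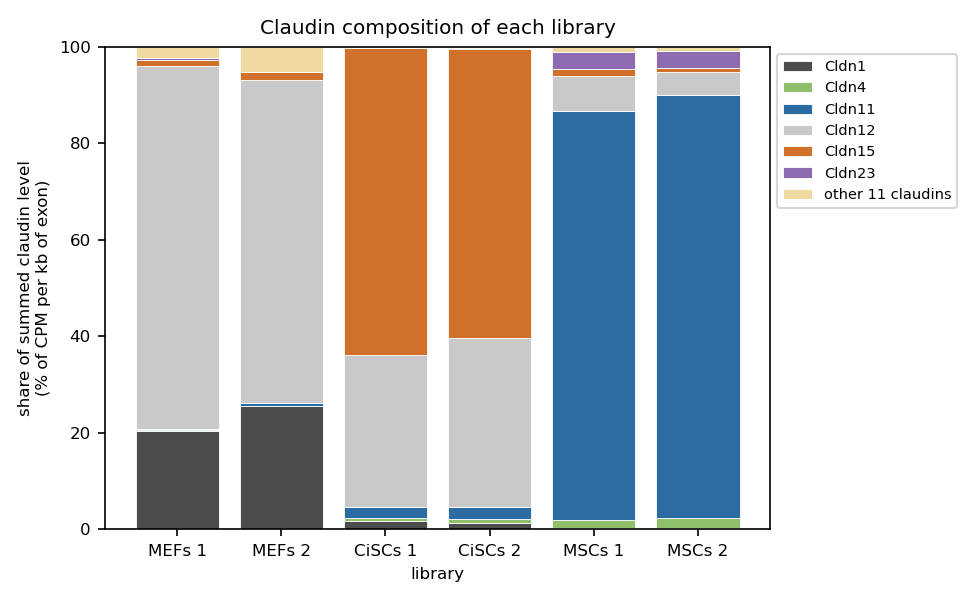
Share of each claudin (y axis, percent of the summed CPM per kb of exon over 17 claudins) in each of the 6 libraries (x axis). Cldn12 fills most of both MEF bars, Cldn15 most of both CiSC bars and Cldn11 (85.0% and 87.7%) most of both MSC bars.

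Cldn11 (Entrez Gene 18417) stood at 0.101 and 0.0520 CPM in the MEF libraries, 1.00 and 1.17 in CiSCs, and 263 and 373 in MSCs. No groups overlapped, and the MSC libraries stood far above both others. With 3 reads in MEFs, the counting ratio of CiSCs to MEFs was 14.1 (exact binomial 95% interval 4.54 to 71.0, adjusted p = 0.00231, edgeR). Between CiSCs and MSCs the log2 fold change was -8.19 ± 0.28 (adjusted p = 9.96e-06, edgeR). The induced cells held 46 reads of this gene over both libraries, and the MSCs 11821.

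Cldn15 (Entrez Gene 60363), whose protein forms cation pores and is best known from the intestine, had 0.354 and 0.208 CPM in MEFs. It reached 32.1 and 31.2 CPM in CiSCs and 5.37 and 4.35 CPM in MSCs. Here the induced cells were the highest group, with no overlap. The log2 fold change was 6.78 ± 0.28 for CiSCs against MEFs (adjusted p = 1.83e-05), 4.08 ± 0.29 for MSCs against MEFs (1.23e-04) and 2.70 ± 0.20 for CiSCs against MSCs (1.17e-04, edgeR).

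Cldn1 (Entrez Gene 12737), a sealing claudin of skin and many epithelia, ran the other way. Its levels were 13.5 and 7.54 CPM in MEFs, 2.00 and 1.59 in CiSCs, and 1.01 and 1.41 in MSCs. MEFs were the highest group by a log2 fold change of -2.55 ± 0.36 for CiSCs (adjusted p = 0.00217) and -3.11 ± 0.38 for MSCs (0.00108, edgeR), and CiSCs and MSCs did not pass against each other (0.305).

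A further 3 claudin genes were carried almost entirely by MSCs. Cldn23 measured 11.1 and 14.7 CPM there and had 2 reads in MEFs and 2 in CiSCs, a counting ratio to MEFs of 251 (95% interval 69.1 to 2079). Cldn4, a claudin of tight epithelia, had 5.00 and 8.96 CPM in MSCs, 0.239 and 0.327 CPM in CiSCs, and 0.0506 and 0 CPM in MEFs. Cldn2, which forms cation pores in leaky epithelia, stood at 1.28 and 1.20 CPM in MSCs, with 1 read in MEFs and 0 in CiSCs. The MSC libraries were above all others for each of the 3, with adjusted p against CiSCs of 2.13e-04 for Cldn23, 5.98e-04 for Cldn4 and 0.00288 for Cldn2 (edgeR). Cldn2 was at least 17.4-fold higher in MSCs than in CiSCs, taking 3 reads over the CiSC group as the floor. The increase of Cldn4 in CiSCs over MEFs rested on 12 reads against 1, a ratio of 11.1 (95% interval 1.64 to 473, adjusted p = 0.0487, edgeR). It did not pass without MEFs replicate 2 (0.146), without either CiSC library (0.102 and 0.167), without either MSC library (0.0557 and 0.0646), with no filter on low counts (0.0590) or by DESeq2 (0.0780).

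Cldn12 had 43.8 and 17.3 CPM in MEFs, 31.7 and 36.2 in CiSCs, and 50.2 and 46.2 in MSCs. It passed in no comparison (adjusted p = 0.779 for CiSCs against MEFs, 0.215 for MSCs against MEFs and 0.342 for CiSCs against MSCs, edgeR), and the MEF libraries lay on both sides of the CiSC libraries. The comparisons with MEFs depended on which MEF library was used. The log2 fold change for CiSCs was 0.95 without MEFs replicate 1 (adjusted p = 9.63e-04) and -0.37 without MEFs replicate 2 (0.0427, edgeR). That for MSCs was 1.45 without MEFs replicate 1 (1.21e-04), and CiSCs against MSCs passed without either MEF library (0.0053 and 0.00368) and with no MEFs in the fit (-0.48, adjusted p = 0.00369, edgeR).

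The other 10 claudin genes were under the filter on low counts. Cldn3 and Cldn5, both of which have been described in Sertoli cells of the mouse, had 24 and 26 reads in MSCs. In CiSCs both had 0 reads, which puts Cldn3 at least 9.10-fold and Cldn5 at least 9.86-fold lower there than in MSCs. Cldn3 also had 11 reads in MEFs. Cldn10 had 16 reads in MSCs, Cldn9 had 6 and Cldn6 had 3, and each had at most 1 read in MEFs and in CiSCs. Cldn19 (3 reads), Cldn7 (0), Cldn8 (0) and Cldn14 (0) were at the limit in MSCs, and none of these 4 exceeded 3 reads in any other group. Cldn18 had 0 reads in every library.

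**Figure D3:**
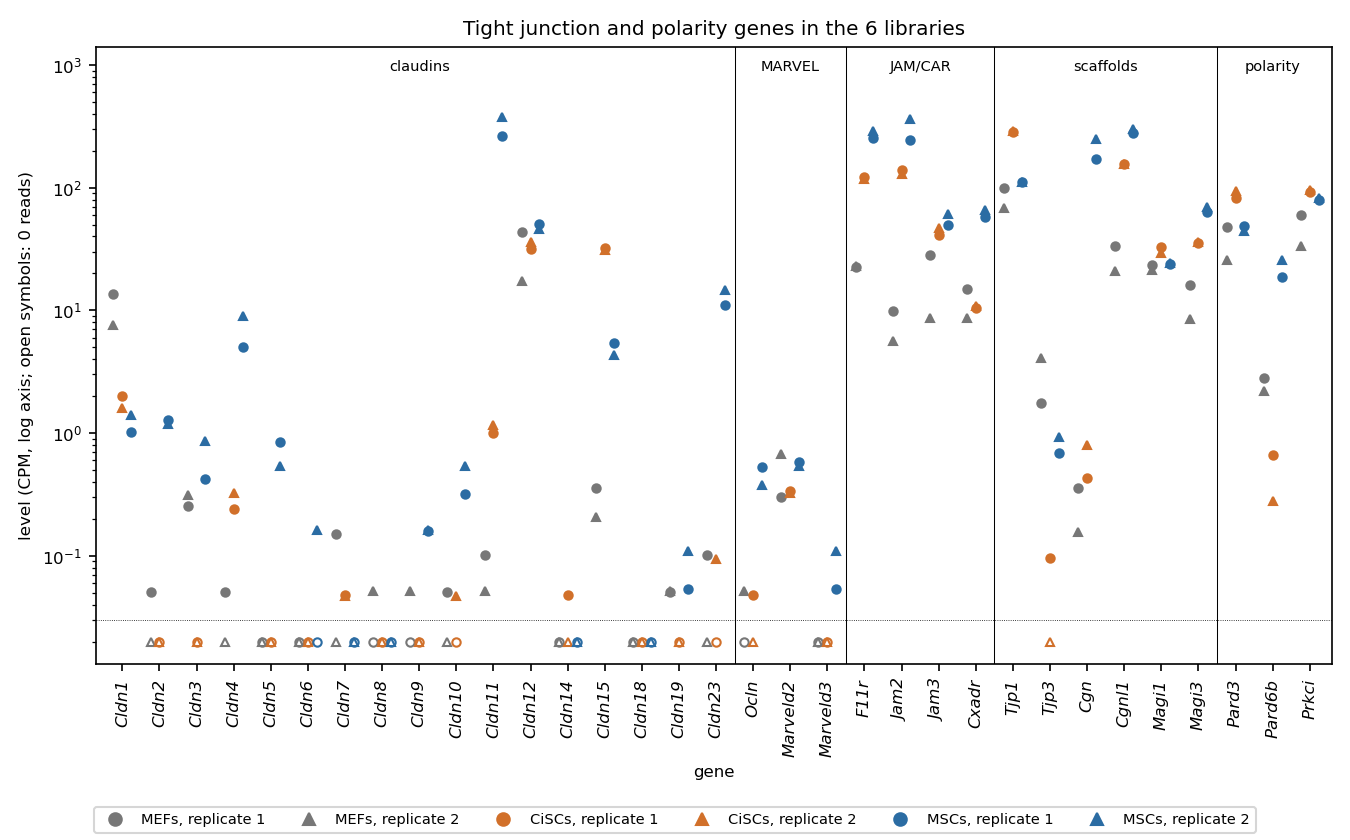
Level of each of the 33 genes (x axis, by role) in CPM on a log axis (y axis), with 1 symbol per library and open symbols at the bottom for 0 reads. Cldn11 spans the widest range, from 0.0520 CPM in MEFs replicate 2 to 373 CPM in MSCs replicate 2, while occludin and the other MARVEL genes stay under 0.7 CPM in every library.

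The MARVEL genes were low in all groups, the Sertoli cells included. Ocln, which encodes occludin, had 1 read in MEFs, 1 in CiSCs and 17 in MSCs, or 0.532 and 0.380 CPM in the last. The gene was not tested. The MSC libraries were above the others, with a counting ratio to CiSCs of 19.3 (95% interval for counting error only, 3.03 to 808). Marveld2, which encodes tricellulin of the contacts between 3 cells, had 0.303 and 0.676 CPM in MEFs, 0.334 and 0.327 in CiSCs, and 0.585 and 0.543 in MSCs, and passed in no comparison. Marveld3 had 3 reads in MSCs and 0 elsewhere.

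The immunoglobulin-like genes were well expressed in all groups and stood highest in MSCs. Of the 4 genes 2 were higher in CiSCs than in MEFs (19.6% of all tested genes). In MSCs 4 were higher than in MEFs (22.5% of all), and 3 were lower in CiSCs than in MSCs (25.1% of all). F11r, which encodes JAM-A, had 22.7 and 23.0 CPM in MEFs, 123 and 117 in CiSCs, and 253 and 288 in MSCs. Jam2, whose protein binds that of Jam3, had 9.91 and 5.61 CPM in MEFs, 139 and 129 in CiSCs, and 243 and 359.9 in MSCs. Both genes thus stood in the order MEFs, CiSCs, MSCs with no overlap. CiSCs exceeded MEFs by a log2 fold change of 4.11 ± 0.33 for Jam2 (adjusted p = 1.81e-04) and 2.39 ± 0.13 for F11r (4.38e-05, edgeR). CiSCs stayed below MSCs by -1.17 ± 0.28 for Jam2 (0.0164) and -1.17 ± 0.13 for F11r (5.36e-04, edgeR). The call for Jam2 against MSCs was lost without either CiSC library (adjusted p = 0.0899 and 0.104) and without MSCs replicate 2 (0.124).

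Jam3 had 28.4 and 8.68 CPM in MEFs, 41.0 and 46.7 in CiSCs, and 50.0 and 61.4 in MSCs. The groups did not overlap, but the MEF libraries were far apart. For CiSCs against MEFs the log2 fold change was 1.24 ± 0.48 (adjusted p = 0.0849, edgeR), and it passed without MEFs replicate 1 (4.64e-05), without MEFs replicate 2 (0.0147) and by DESeq2 (0.0224). MSCs were higher than MEFs (1.59 ± 0.49, adjusted p = 0.0397, edgeR), which did not hold without either CiSC library (0.0753 and 0.0755) or either MSC library (0.117 and 0.169), with only these groups fitted (0.0723) or with no filter (0.0527). Against MSCs the CiSCs did not pass (0.600), except without MEFs replicate 2 (0.0449).

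Cxadr, the gene of the coxsackievirus and adenovirus receptor, an adhesion protein of junctions, set MSCs apart. Its levels were 14.9 and 8.73 CPM in MEFs, 10.5 and 10.9 in CiSCs, and 57.3 and 65.6 in MSCs. MEFs and CiSCs overlapped, and MSCs were above both. CiSCs were lower than MSCs by -2.52 ± 0.26 on the log2 scale (adjusted p = 4.15e-04, edgeR) and did not pass against MEFs (0.676). Without MEFs replicate 2 they were below MEFs (log2 fold change -0.48, adjusted p = 0.0240, edgeR).

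All 6 scaffold genes were tested, with 4 higher and 1 lower in CiSCs than in MEFs, 3 and 1 in MSCs than in MEFs, and 1 and 4 in CiSCs than in MSCs. Among all tested genes these shares were 19.6% and 21.3%, 22.5% and 20.0%, and 17.7% and 25.1%. Within the cingulin pair, Cgn set the induced cells far apart from the Sertoli cells, and Cgnl1 did so far less. Cgn (Entrez Gene 70737), which encodes cingulin, a link between ZO proteins and actomyosin, had 0.354 and 0.156 CPM in MEFs and 0.429 and 0.795 CPM in CiSCs. In MSCs it stood at 170.0 and 247 CPM, far above every other library. The log2 fold change of CiSCs against MSCs was -8.39 ± 0.38 (adjusted p = 1.89e-05, edgeR), and CiSCs did not pass against MEFs (0.144). Its paralog Cgnl1, which encodes paracingulin, had 33.6 and 20.7 CPM in MEFs, 154 and 156 in CiSCs, and 279.8 and 299 in MSCs. Cgnl1 rose in CiSCs over MEFs by 2.51 ± 0.24 (3.50e-04, edgeR) and lay -0.90 ± 0.22 under MSCs (0.0174, edgeR). That last call was lost when any 1 of the CiSC or MSC libraries was left out (0.0818 to 0.109). Per kb of exon, the ratio of Cgn to Cgnl1 was 0.00362 and 0.00666 in CiSCs and 0.792 and 1.08 in MSCs.

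The start regions of 4 genes are shown, each of which was far higher in 1 group than in at least 1 of the others. They are the 250 bases before the RefSeq start (build GRCm38.p6), 5′ to 3′ on the gene's strand, with matches to any of 5 searched motifs in capitals. The motifs, searched on both strands, were GATA-type AGATAA, SOX-type AACAAT, Snail-type E-box CAGGTG, GC box GGGCGG and TATA box TATAAA. None of these is a part of another. Cldn11 lies on chromosome 3 (chr3:31149670-31149919, plus strand) and Cgn on chromosome 3 (chr3:94786483-94786732, minus strand), and both were high in MSCs. Cldn15 (chr5:136967619-136967868, plus strand) was highest in CiSCs and Cldn1 (chr16:26371840-26372089, minus strand) in MEFs.
Cldn11: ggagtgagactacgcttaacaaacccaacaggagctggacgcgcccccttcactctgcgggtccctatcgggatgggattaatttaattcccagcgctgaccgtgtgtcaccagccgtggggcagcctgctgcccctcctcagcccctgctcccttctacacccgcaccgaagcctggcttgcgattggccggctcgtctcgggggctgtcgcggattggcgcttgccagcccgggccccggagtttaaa
Cgn: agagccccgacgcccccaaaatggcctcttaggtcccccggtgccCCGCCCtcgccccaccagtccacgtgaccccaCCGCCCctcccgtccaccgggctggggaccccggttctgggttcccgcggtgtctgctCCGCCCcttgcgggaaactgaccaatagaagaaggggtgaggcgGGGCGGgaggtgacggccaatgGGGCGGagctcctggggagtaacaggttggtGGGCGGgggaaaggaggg
Cldn15: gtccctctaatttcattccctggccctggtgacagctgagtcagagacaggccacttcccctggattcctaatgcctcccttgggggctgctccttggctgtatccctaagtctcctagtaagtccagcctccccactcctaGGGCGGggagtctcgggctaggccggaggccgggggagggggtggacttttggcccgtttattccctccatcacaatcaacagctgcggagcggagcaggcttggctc
Cldn1: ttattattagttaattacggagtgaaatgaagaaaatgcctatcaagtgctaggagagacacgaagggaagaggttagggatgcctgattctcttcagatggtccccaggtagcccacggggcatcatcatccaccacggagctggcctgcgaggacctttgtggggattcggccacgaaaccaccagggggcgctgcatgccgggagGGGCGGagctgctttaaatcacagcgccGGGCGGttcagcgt

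All capitals above are GC boxes. The Cgn region held 6, starting between 205 and 18 bases before the start, Cldn1 held 2, Cldn15 held 1 and Cldn11 none of the 5 motifs. RefSeq promoters were found for 26 of the 33 genes, 39 regions in all, some of them overlapping starts of the same gene. A GC box was in 25 of the 39 regions and in 54.9% of the regions of all tested genes (32.7% of all 32851 regions). The 39 regions include those of genes that were not tested. The E-box letters were in 11 of 39 (15.7% of regions of tested genes and 17.2% of all regions). The GATA letters were in 3 (6.15% and 9.99%), the SOX letters in 1 (5.35% and 9.42%) and the TATA letters in 4 (6.95% and 12.4%). The number of CpG dinucleotides in these 250 bases was 19 for Cldn11, 19 for Cgn, 7 for Cldn15 and 14 for Cldn1. It was 43 for Pard6b and 34 for Pard3. The median was 9.5 over the 26 genes, some of which were not tested. It was 15 over 11488 tested genes with a listed promoter and 6 over all 27025 genes with one. In the same assembly 3 pairs of the genes have no protein-coding gene between them, Cldn3 and Cldn4, Cldn6 and Cldn9, and Ocln and Marveld2. Of the first pair, Cldn4 reached 8.96 CPM and Cldn3 0.869 CPM in the same MSC library.

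Of the ZO proteins, which join claudins to actin, Tjp1 (ZO-1) was highest in the induced cells. It had 99.0 and 68.0 CPM in MEFs, 286 and 287 in CiSCs, and 111 and 110.3 in MSCs. CiSCs exceeded MEFs by a log2 fold change of 1.78 ± 0.19 (adjusted p = 6.65e-04) and MSCs by 1.37 ± 0.19 (0.00160, edgeR). MSCs did not pass against MEFs (0.130), except without MEFs replicate 1 (8.15e-04, edgeR).

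Tjp3 (ZO-3), a paralog best known from epithelia, went the opposite way from Tjp1. It had 1.77 and 4.11 CPM in MEFs, 0.691 and 0.924 CPM in MSCs, and 2 reads in CiSCs, both in replicate 1. The counting ratio of MEFs to CiSCs was 61.9 (95% interval 16.7 to 517, adjusted p = 0.00278, edgeR) and that of MSCs to CiSCs 17.1 (4.33 to 147, adjusted p = 0.0183). The call against MSCs was lost without CiSCs replicate 2 (0.0834), MSCs replicate 1 (0.0594) or MSCs replicate 2 (0.0868). MSCs were below MEFs by -1.86 ± 0.60 (0.0467, edgeR), which did not pass without MEFs replicate 2 (0.183), without either MSC library (0.239 and 0.168), with the replicate number as a block (0.0679), with no filter (0.0619) or by DESeq2 (0.0564). The MEF library with more Tjp3 was also that with the higher leukocyte marker sum, and the part of those markers in the result was not tested.

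The MAGI scaffolds are large multi-PDZ proteins under the junction. Magi3 had 16.1 and 8.58 CPM in MEFs, 35.2 and 35.7 in CiSCs, and 63.3 and 70.1 in MSCs, in that order with no overlap. It rose over MEFs by 1.52 ± 0.28 in CiSCs (adjusted p = 0.00637) and 2.43 ± 0.29 in MSCs (9.06e-04, edgeR). Its lower level in CiSCs than in MSCs (-0.91 ± 0.27, 0.0349) was not called when any 1 of the CiSC or MSC libraries was left out (0.119 to 0.170). Magi1 had 23.3 and 21.3 CPM in MEFs, 32.8 and 29.3 in CiSCs, and 24.0 and 24.2 in MSCs. The small rise in CiSCs over MEFs (0.48 ± 0.13, adjusted p = 0.0303, edgeR) did not pass when any 1 of the CiSC or MSC libraries was left out (0.0802 to 0.227), with only these groups fitted (0.0808) or with the replicate number as a block (0.0573). Against MSCs it did not pass (0.0681), except without either MEF library (0.0149 and 0.0125) and with no MEFs in the fit (0.00927, edgeR).

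In the polarity complex, Pard3 and Prkci were highest in CiSCs and Pard6b was lowest there. The margin of Prkci over MSCs did not pass in the fit of all 6 libraries. Pard6b (Entrez Gene 58220), an adaptor that binds atypical protein kinase C and Cdc42, had 2.83 and 2.18 CPM in MEFs, 0.668 and 0.281 in CiSCs, and 18.7 and 25.6 in MSCs. No groups overlapped. CiSCs were below MEFs by -2.39 ± 0.42 (adjusted p = 0.00502) and below MSCs by -5.53 ± 0.40 (1.01e-04, edgeR). MSCs exceeded MEFs by 3.14 ± 0.33 (5.50e-04, edgeR).

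Pard3, the scaffold that recruits the complex to the junction, had 47.9 and 25.9 CPM in MEFs, 82.8 and 94.5 in CiSCs, and 48.4 and 44.7 in MSCs. CiSCs lay above both other groups, which overlapped. It was higher in CiSCs than in MEFs by 1.26 ± 0.28 (adjusted p = 0.0131), a call lost without either CiSC library (0.0529 and 0.0842), and than in MSCs by 0.93 ± 0.28 (0.0363), lost when any 1 of the CiSC or MSC libraries was left out (0.0976 to 0.187, edgeR). MSCs against MEFs passed only without MEFs replicate 1 (0.00151). Prkci, the kinase of the complex, had 60.1 and 33.4 CPM in MEFs, 91.7 and 95.7 in CiSCs, and 79.8 and 82.0 in MSCs. It rose in CiSCs over MEFs by 1.00 ± 0.26 (adjusted p = 0.0238, edgeR), which did not pass when any 1 of the CiSC or MSC libraries was left out (0.0609 to 0.121) or with only these groups fitted (0.0555). The difference of MSCs from MEFs lay at the threshold (0.79 ± 0.26, adjusted p = 0.0510) and passed without either MEF library (5.56e-05 and 0.0129), with a filter at 1 CPM (0.0499), with median-ratio scaling (0.0488) and by DESeq2 (0.0178). CiSCs against MSCs did not pass (0.555), except without MEFs replicate 1 (0.0473) and with only these groups fitted (0.0339, edgeR).

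Paralogs of these genes were read from the list of other junction genes, and those in this paragraph were chosen after their values had been seen. Pard6g was the counterpart of Pard6b, with 16.0 and 11.1 CPM in MEFs, 24.3 and 25.8 in CiSCs, and 7.12 and 5.00 in MSCs. It was higher in CiSCs than in MSCs (log2 fold change 2.05 ± 0.26, adjusted p = 0.00102, edgeR), where Pard6b was lower. Per kb of exon, the ratio of Pard6g to Pard6b was 39.3 and 99.4 in CiSCs, 6.11 and 5.48 in MEFs, and 0.412 and 0.211 in MSCs, so Pard6g exceeded Pard6b in CiSCs and MEFs and was below it in MSCs. Pard6a stayed between 3.63 and 6.90 CPM in all libraries. Prkcz, the second atypical protein kinase C gene, was between 0.253 and 1.17 CPM, and Magi2 between 26.8 and 44.2 CPM.

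**Figure D4:**
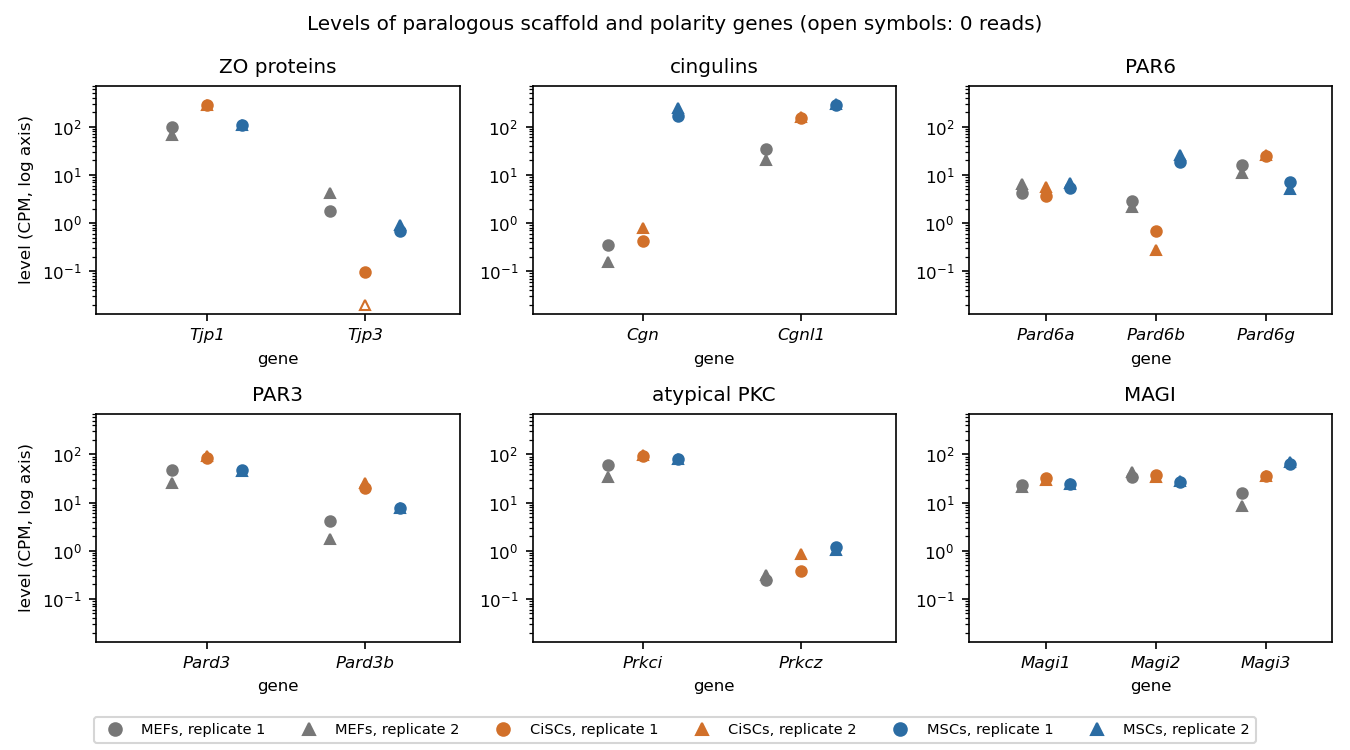
Levels in CPM (y axis, log scale) of paralogous scaffold and polarity genes (x axis) in the 6 libraries, 1 symbol per library, open symbols for 0 reads. Pard6b and Pard6g are ordered oppositely in CiSCs (0.668 and 0.281 against 24.3 and 25.8 CPM) and MSCs (18.7 and 25.6 against 7.12 and 5.00 CPM), and Cgn is high in MSCs alone while Cgnl1 is high in CiSCs as well.

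The list of other junction and polarity genes held 47 genes in the files, of which 40 were tested. For CiSCs against MEFs 12 were higher and 4 lower, for MSCs against MEFs 14 and 8, and for CiSCs against MSCs 9 and 11. The shares over all tested genes were 19.6% and 21.3%, 22.5% and 20.0%, and 17.7% and 25.1%. Their median log2 fold changes were 0.24, 0.46 and -0.06. These counts moved with single libraries. For CiSCs against MEFs the 12 became 4 to 7 when any 1 of the CiSC or MSC libraries was left out, and the 4 became 2 without either CiSC library and 7 and 9 without MEFs replicates 1 and 2. For MSCs against MEFs the 14 and 8 became 8 and 2 without MSCs replicate 1 and 7 and 2 without MSCs replicate 2. For CiSCs against MSCs the 11 became 6 without CiSCs replicate 1 and 7 without CiSCs replicate 2 or MSCs replicate 2. Clmp, a relative of the Cxadr protein, was the gene with the smallest adjusted p in 2 of the 3 comparisons. It had 32.4 and 37.1 CPM in MEFs, 96.3 and 91.5 in CiSCs, and 6.96 and 8.26 in MSCs, and so ran opposite to Cxadr between CiSCs and MSCs (log2 fold change 3.62 ± 0.17, adjusted p = 1.90e-05, edgeR). The angulin genes Lsr and Ildr2, whose proteins recruit tricellulin to contacts between 3 cells, were high in MSCs. Lsr had 86.7 and 129.7 CPM there, 5.01 and 8.94 CPM in MEFs, and 1.00 and 0.749 CPM in CiSCs. Ildr2 was at 149 and 149 CPM in MSCs, 4.60 and 2.24 CPM in MEFs, and 7.44 and 8.42 CPM in CiSCs.

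Among further genes of that list, the angiomotin-like genes, whose proteins bind polarity complexes, moved apart. Amotl1 was highest in CiSCs (395 and 463 CPM, against 107 and 63.8 CPM in MEFs and 149 and 119.8 CPM in MSCs). Amotl2 was lowest there (162 and 166 CPM, against 336 and 239 CPM in MEFs and 619 and 597 CPM in MSCs). Pard3b, the paralog of Pard3, rose in CiSCs over MEFs, from 2.96 ± 1.68 to 22.8 ± 3.36 CPM (SD, n = 2; log2 fold change 2.94 ± 0.37, adjusted p = 0.00132, edgeR). Crb3, an apical polarity gene of epithelia, fell from 4.46 ± 2.37 CPM in MEFs to 1 read in CiSCs, and like Tjp3 it was higher in MEFs replicate 2 (6.13 CPM) than in replicate 1 (2.78 CPM). Esam, an adhesion molecule gene of endothelial cells and platelets, had 3.35 and 4.18 CPM in MSCs, at most 0.842 CPM in CiSCs and at most 0.312 CPM in MEFs.

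Levels of the 33 genes fell in different orders across the groups. Of the 21 tested genes, 8 stood in the order MEFs, CiSCs, MSCs with no overlap between any groups (Cldn4, Cldn11, F11r, Jam2, Jam3, Cgn, Cgnl1 and Magi3), as did 8.20% of all tested genes. Another 4 stood in the order MEFs, MSCs, CiSCs (Cldn15, Tjp1, Prkci and Magi1, 7.67% of all). Pard6b alone stood in the order CiSCs, MEFs, MSCs (7.14% of all), Tjp3 in the order CiSCs, MSCs, MEFs (9.80%) and Cldn1 in the order MSCs, CiSCs, MEFs (6.46%). The order MSCs, MEFs, CiSCs held for 0 of the 21 (6.63%), and in 6 genes some groups overlapped (54.1%). Cldn4, Cldn11 and Cgn were near 0 in MEFs and could be tested only through a group in which they were high. These numbers thus describe the list, and libraries that do not overlap are not a call. In the first set, Cgn and Jam3 did not pass for CiSCs against MEFs (adjusted p = 0.144 and 0.0849, edgeR). Jam3 did not pass for CiSCs against MSCs either (0.600, edgeR). Within the first set the place of CiSCs between the other groups varied. CiSCs were -1.17 below MSCs on the log2 scale for both F11r and Jam2, but -8.19 for Cldn11 and -8.39 for Cgn.

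Markers of other cells moved with the groups in these bulk libraries, in which fewer cells of a type and less RNA per cell cannot be told apart. Over all tested genes 19.6% were higher and 21.3% lower in CiSCs than in MEFs, 22.5% and 20.0% in MSCs than in MEFs, and 17.7% and 25.1% in CiSCs than in MSCs. Of 14 tested Sertoli cell markers, 13 were higher in MSCs than in MEFs, and in CiSCs 2 were higher and 1 lower than in MEFs. Against MSCs, 13 of the 14 were lower in CiSCs and 0 higher. Gata1, Fshr, Cst12 and Nr5a1 of this list had 0 reads in CiSCs, and Dmrt1 and Fshr had 0 reads in MEFs. The 12 leukocyte markers, all lower in CiSCs than in MEFs, summed to 34.3 and 50.7 CPM in CiSCs and 1403 and 1316 CPM in MSCs. Endothelial cells also use several of these junction genes. Their markers (11 genes, Cldn5 left out) summed to 28.0 and 39.2 CPM in MEFs, 25.3 and 27.3 in CiSCs, and 124 and 134.8 in MSCs. None was at 0 reads in a group (Esam is on this list too). In CiSCs 3 of 11 were higher than in MEFs, 4 were lower and 4 did not pass, so the similar sums hide changes in both directions. In MSCs 8 of 11 were higher than in MEFs, 1 was lower and 2 did not pass. Cdh5, the endothelial cadherin gene, had 55.9 and 57.9 CPM of the MSC sums. The gene lower in MSCs, Vwf, had 10.5 and 21.7 CPM in MEFs and 5.95 and 7.23 CPM in MSCs. Epithelial markers (11 genes, Cldn4 and Cldn7 left out) summed to 15.3 and 12.1 CPM in MEFs, 24.3 and 18.6 in CiSCs, and 30.0 and 28.4 in MSCs. Of 6 tested, 1 was higher (Krt18) and 1 lower (Cdh1) in CiSCs than in MEFs, and 3 were higher and 2 lower in MSCs than in MEFs, with Esrp1 and Elf3 at 0 reads in MEFs, Esrp1 and Grhl2 in CiSCs and Ovol1 in MSCs. The 8 steroidogenic markers summed to 1554 and 1579 CPM in MSCs and to at most 13.0 CPM elsewhere, and the 9 germ cell markers to 34.1 and 27.9 CPM in MSCs and at most 4.16 CPM elsewhere. The 6 peritubular myoid markers summed to 3654 and 3269.7 CPM in MEFs, 1704 and 1536 in CiSCs, and 3934 and 3746 in MSCs, with 1 higher and 5 lower in CiSCs than in MEFs and 6 lower than in MSCs. The 12 fibroblast markers summed to 22704 and 24589 CPM in MEFs, 28896 and 29120 in CiSCs, and 40781 and 43517 in MSCs. Most of each sum came from the collagen genes Col1a1, Col1a2 and Col3a1. Of the 12 markers, 4 were higher and 2 lower in CiSCs than in MEFs. In MSCs 3 were higher than in MEFs (Col1a2, Col3a1 and Dcn) and 4 lower (Thy1, Lum, Pdgfrb and Vim). The part of these cells in the levels of the junction genes was not tested.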

How the data were processed

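Total RNA of 6 mouse libraries was sequenced on the BGISEQ-500 platform. The authors deposited expected counts per gene, 1 file per library; HISAT and the build mm9 are named per the submitters' processing notes. The counting program, annotation and strand are not given in the sources used here. Values were not whole for 8 of the 33 genes (tolerance 1e-09), and such genes may share reads with other loci. Entrez identifiers were matched to RefSeq symbols (18891 of 20007).

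Counts were rounded and fitted in R 4.3.3 with edgeR 4.0.16 (filterByExpr defaults, TMM, 1 mean per group, all 6 libraries, 3 residual degrees of freedom, two-sided quasi-likelihood F tests, Benjamini-Hochberg adjusted p under 0.05 over 15272 genes). Standard errors are the log2 fold change divided by the root of F. The procedure was also run on simulated data, with far fewer genes changed than were called here and none of the changed genes near 0 reads. That run does not cover genes near the detection limit or changes as widespread as these. The genes, lists and tests were chosen with earlier results of these data known. Values per library were written out for genes past the threshold in any comparison or above 10 CPM in a group. Of the other junction genes, the 4 with the smallest adjusted p per comparison and at least 1 CPM were named. Alternatives were each library left out, a replicate block, only the 2 groups compared, an adjusted p under 0.01, a fold of 1.5, no filter, a filter at 1 CPM in 2 libraries, median-ratio scaling and DESeq2 1.42.0.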

Additional observations from a re-analysis of the deposited data

How the results depend on the processing

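Of the calls made, 10 of 14 for CiSCs against MEFs, 13 of 15 for MSCs against MEFs and 10 of 15 for CiSCs against MSCs were made under every alternative that gave a value. Leaving out each library in turn gave, for the 33 junction genes, 7 to 13 higher and 3 to 5 lower for CiSCs against MEFs, 12 to 18 and 1 to 2 for MSCs against MEFs, and 2 to 5 and 8 to 16 for CiSCs against MSCs. The other junction genes gave 4 to 17 and 2 to 9, 7 to 21 and 2 to 9, and 6 to 11 and 6 to 13. An adjusted p under 0.01 gave 7 junction genes higher for CiSCs against MEFs, and 1 lower for MSCs against MEFs. It gave 5 and 2, 8 and 3, and 7 (lower, CiSCs against MSCs) of the other genes, and a fold of 1.5 gave 6 and 2, 8 and 4, and 7. Calls lost against a fold of 1.5 were those of Cldn4, Magi1 and Prkci for CiSCs against MEFs, Jam3 and Tjp3 for MSCs against MEFs, and Jam2, Cgnl1, Magi3 and Pard3 for CiSCs against MSCs. The fits of only the 2 groups compared called 7 other genes higher for CiSCs against MEFs and 5 junction genes higher for CiSCs against MSCs. The single gene lower in MSCs than in MEFs with the replicate block, a fold of 1.5, no filter or DESeq2 (1 in place of 2 each time) was Cldn1. Deviations of libraries of the same number from their group means had correlations over genes of -0.21 for MEFs and CiSCs, 0.14 for MEFs and MSCs and -0.13 for CiSCs and MSCs. Such values from 2 libraries a group cannot show whether libraries were paired, and the labels state no pairing. With the replicate number as a block, 10 and 3, 13 and 1, and 3 and 12 junction genes were higher and lower. Fold changes that turned sign, all uncalled at first, ranged over the left-out libraries, for CiSCs against MEFs, from -0.37 to 0.95 for Cldn12, -3.18 to 3.08 for Cldn23, -1.04 to 0.12 for Marveld2 and -0.48 to 0.27 for Cxadr, and for MSCs against MEFs from -0.29 to 0.88 for Marveld2 and -0.045 to 0.81 for Pard3. Cldn2 gave no value for CiSCs against MEFs without MEFs replicate 1, with 0 reads left. Depth limits the 12 untested genes, of which all but Cldn3 and Cldn5 had at most 17 reads in any group. The cause of these changes was not tested.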
